A study of Mus musculus with 30 samples.

Results

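Antigen-induced early response genes are a group of genes whose transcription rises quickly after a lymphocyte's antigen receptor is engaged. The set described here has 10 members of the 19937 genes measured, chosen as the probe sets whose array gene symbol was Egr1, Egr2, Egr3, Nr4a1, Nr4a3, Fos, Jun, Junb, Batf or Cd69, and each member had 1 probe set. Signals from the B cell receptor reach the nucleus through calcium and the ERK kinase cascade, where serum response factor, CREB, NFAT and related factors act on the promoters of these genes. Most of the products are themselves transcription factors: the EGR zinc finger proteins, the orphan nuclear receptors NR4A1 and NR4A3, and the AP-1 components FOS, JUN, JUNB and BATF. CD69 is a membrane protein that appears on recently activated lymphocytes and holds the egress receptor S1PR1 inside the cell. In a germinal centre (GC), B cells move between a dark zone (DZ), where they divide and mutate their antibody genes, and a light zone (LZ), where they meet antigen and helper T cells.

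All cells came from the mesenteric lymph nodes of CeGFP BALB/c mice on day 10 of infection with the worm Nippostrongylus brasiliensis. CeGFP is a knock-in of IRES-GFP behind the membrane IgE exons, so every group, naive cells included, carried the reporter allele. GFP marks IgE cells, but also IgG1 cells that rearranged to Cε on the chromosome from which no antibody is made. The first experiment had 18 arrays in 6 sorted groups: GFP- IgG1 GC cells, GFP+ IgG1 GC cells and GFP+ IgE GC cells (3 arrays each), GFP+ IgG1 plasma cells (PC, 2 arrays), GFP+ IgE PC (4 arrays) and naive B cells without surface IgG1 or IgE (3 arrays). The gates were B220+ CD95+ CD138- for GC, CD95+ CD138+ for PC, and B220+ with neither CD95 nor CD138 for naive cells. The second experiment had 12 arrays in 4 groups of 3, IgG1 GC cells divided into DZ (CXCR4 high, CD86 low) and LZ (CXCR4 low, CD86 high) and each of these into GFP+ and GFP-. Each array was a pool of 3 mice, and the replicates of a group came from independent sorts. The labels do not say whether arrays of different groups with the same number came from 1 sort. The ages of the mice are not given in the sources used here.

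Values are log2 signals, on which a difference of 1 is a doubling. They are compared within 1 experiment and 1 probe set only, since different probe sets and the separate experiments share no scale. Tests took in the genes whose signal exceeded the array median on 2 or more arrays in the first experiment (12098 genes) and on 3 or more in the second (11050 genes). "Called" means an adjusted p under 0.05 in limma's moderated test with Benjamini-Hochberg adjustment over all genes tested in that experiment, and every adjusted p given is from that test. Nr4a3 lay above the median on 0 of 30 arrays and was not tested, so that 9 members were tested in each of 16 comparisons. These are bulk samples, in which fewer expressing cells and less RNA per cell cannot be told apart.

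The sort labels were set against marker genes. In the first experiment the mean of 6 GC markers ranged from 9.78 to 10.13 on the GC arrays, from 6.82 to 7.81 on the PC arrays and from 5.61 to 6.07 on the naive arrays, and on the zone arrays of the second it was 9.61 to 10.14. The mean of 7 PC markers lay between 9.03 and 9.92 on the PC arrays and at or below 7.32 on the others of the first experiment. Of the zone sort markers, Cd86 was lower in DZ cells (called), while Cxcr4 differed by 0.31 and was not called. Naive array 1 and GFP+ IgG1 GC array 3 stood furthest from the other arrays of their groups, and the calls that change without them are given below.

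The members separated the zones. Of the 9 tested members 6 were lower in DZ than in LZ cells: the zinc finger genes Egr2 and Egr3, the nuclear receptor gene Nr4a1, the AP-1 genes Junb and Batf, and Cd69. None was higher. Among all genes tested 3% were called lower in DZ. The median difference of the 9 members was -0.73 against 0.00 for all genes, and all 9 estimates lay below 0. Fos and Jun, the classic partners of AP-1, differed little between zones.

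**Figure D1:**
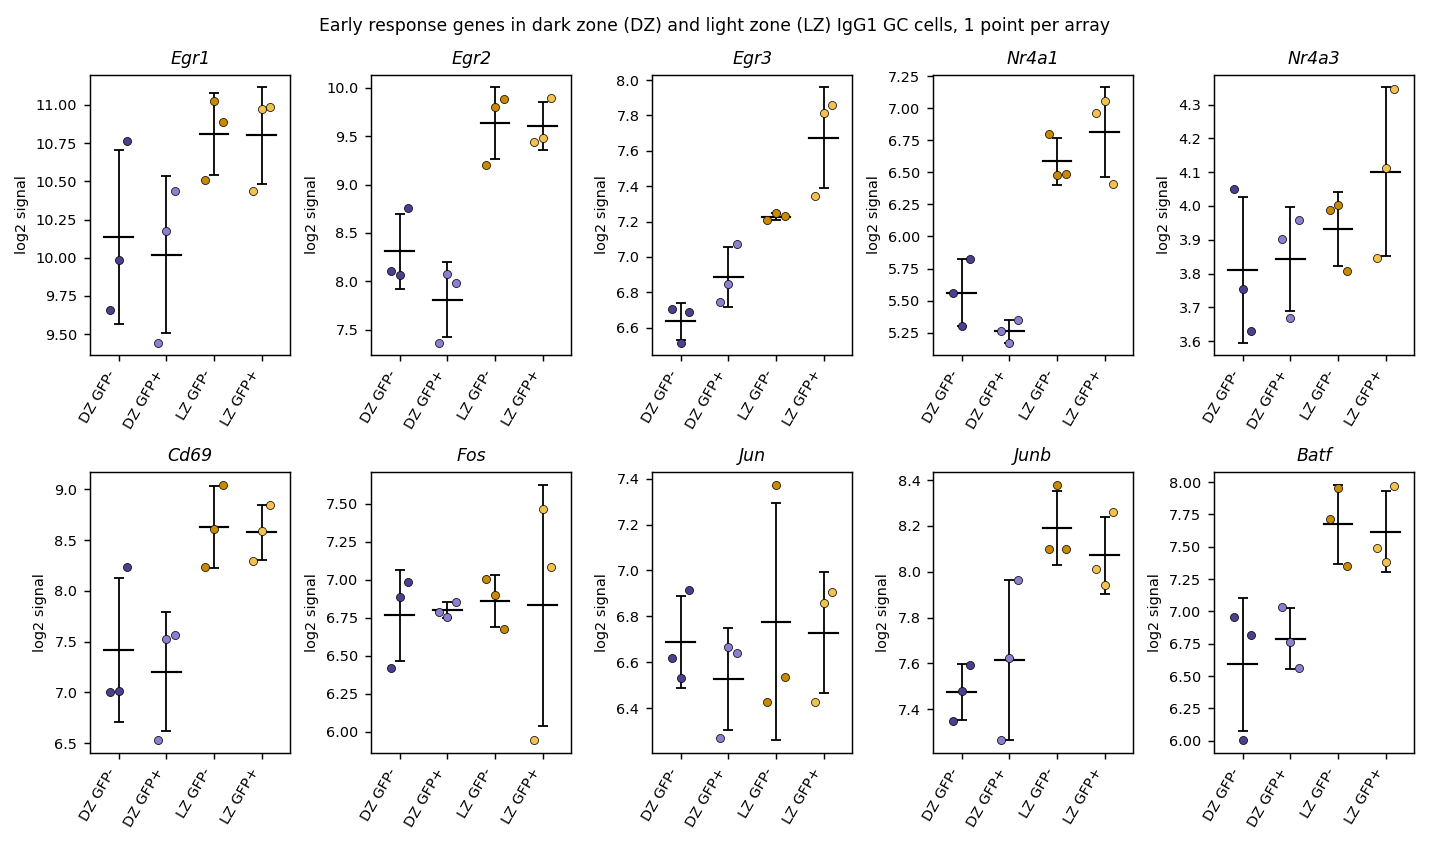
Log2 signal of each early response gene on the 12 arrays of the second experiment, with points for arrays, bars for group means and whiskers for the SD (n = 3). For Egr2, Egr3, Nr4a1, Batf and Cd69 the 6 DZ arrays lie below all 6 LZ arrays, while Fos and Jun overlap. The share of all genes without overlap between zones is not given here. Each panel has its own axis.

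Egr2 encodes a zinc finger factor that rises with antigen receptor signals and limits lymphocyte activation. Its DZ signal was 7.37, 8.08 and 7.98 on the GFP+ arrays and 8.11, 8.07 and 8.76 on the GFP- arrays. In LZ cells the GFP+ arrays read 9.44, 9.48 and 9.89, and the GFP- arrays 9.20, 9.80 and 9.89. Every DZ array was thus below every LZ array. The difference was -1.56 (SE 0.18, 95% confidence interval -1.95 to -1.17, adjusted p = 0.000438), a 2.94-fold lower signal in DZ. Ordered from the lowest DZ minus LZ estimate, Egr2 was at rank 8 of 11050 genes, Cd69 at 15 and Nr4a1 at 16.

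Of the 7 members with promoter windows at hand, Egr2 was the only one with a CArG box, the element bound by serum response factor. The RefSeq windows ran from 250 bases before to 50 after an annotated start (build GRCm38.p6). Egr2 had 5 windows and each of the others 1, so that Egr2 had more sequence searched. Egr1, Egr3 and Cd69 had no window and were not searched. The CArG box was searched for on both strands. It was found in 1.63% of all 32851 windows and for 1.81% of all 27025 genes, and in 1 of the 7 members. Egr2 had it at 2 places, chr10:67537484-67537513 and chr10:67537787-67537816 on the plus strand, shown here with the box in capitals because Egr2 moved most between the zones.
Egr2 upstream box: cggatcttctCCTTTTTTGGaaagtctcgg
Egr2 downstream box: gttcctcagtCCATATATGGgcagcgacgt
Each box lay at positions -72 to -63 from a start annotated by RefSeq. A match describes these letters and shows no binding. Sequence outside the windows was not searched for any member, and the part of the box in the zone difference was not tested.

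Egr3, a paralogue of Egr2 that shares its DNA motif, was lower in DZ as well. The DZ arrays read 6.74, 6.85 and 7.07 for GFP+ cells and 6.70, 6.51 and 6.69 for GFP- cells. The LZ arrays read 7.34, 7.81 and 7.86 for GFP+ cells and 7.21, 7.25 and 7.23 for GFP- cells. The difference of -0.69 (SE 0.11, adjusted p = 0.00282) was 1.61-fold. The 4 groups did not overlap at all for this gene: LZ GFP+ was highest, followed by LZ GFP-, DZ GFP+ and DZ GFP-. Over both zones, Egr3 was 0.35 higher in GFP+ cells (SE 0.11), a difference that was not called (limma, adjusted p = 0.941).

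Egr1, the best known member of the family and a direct ERK target, had high signals in both zones. Its DZ arrays read 9.45, 10.18 and 10.43 (GFP+) and 9.66, 9.99 and 10.76 (GFP-). Its LZ arrays read 10.44, 10.98 and 10.99 (GFP+) and 10.51, 11.03 and 10.89 (GFP-). One array, GFP- DZ replicate 3, sat inside the LZ range. The difference of -0.73 (SE 0.22) missed the threshold (adjusted p = 0.0639), and it passed without that array (-0.88, adjusted p = 0.0252). Replicate 1 was the lowest of its group in all 4 zone groups for Egr1, as it was for Cd69. A limma fit with a term for the replicate number, run on all arrays, called Egr1 lower in DZ (adjusted p = 0.00775). Whether these numbers mark shared sorts is not known.

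Nr4a1, whose product NUR77 is widely used as a reporter of antigen receptor signalling, gave the smallest adjusted p of the members. On the DZ arrays it read 5.26, 5.17 and 5.35 in GFP+ cells and 5.56, 5.30 and 5.83 in GFP- cells. On the LZ arrays it read 6.97, 7.06 and 6.41 in GFP+ cells and 6.80, 6.48 and 6.49 in GFP- cells. The zones did not overlap. The difference was -1.29 (SE 0.14, adjusted p = 0.000256), or 2.44-fold. The DZ values lay near the array medians (5.28 to 5.47 over all 30 arrays), where array signals compress fold changes. Nr4a3, the related receptor, read between 3.63 and 4.35 on the 12 zone arrays, and when fitted without the filter differed by -0.19 between zones (SE 0.11, adjusted p = 0.461).

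The Nr4a1 promoter window was the only one of the 7 members' windows with a match to the EGR motif GCGNGGGCG, searched on both strands. The motif was present in 5.55% of all windows and for 6.27% of all 27025 genes. The match lay on the opposite strand at chr15:101266776-101266805 and at -60 to -52 from the annotated start. It shows no binding, and is given in capitals because the motif is that of the EGR proteins.
Nr4a1: gcgtcagtggCGCCCCCGCccctctccatg
The cAMP response element TGACGTCA (1.79% of windows), the AP-1 motif TGANTCA (7.81%), the NR4A motif AAAGGTCA (1.51%) and the ETS motif CCGGAAGT (3.89%) had matches in 0 of the 7 members. The cAMP response half-site TGACG, which the full element contains, was in a window of 6 of 7 members and of 23.05% of all 27025 genes. Jun was the exception. In Fos it lay at chr12:85473812-85473841, at -66 to -62 from the start, and the half-site is again in capitals.
Fos: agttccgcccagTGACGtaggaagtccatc

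Cd69 was lower in DZ cells as well. It read 6.53, 7.53 and 7.57 on the GFP+ and 7.01, 7.01 and 8.23 on the GFP- DZ arrays. In LZ cells it read 8.29, 8.59 and 8.84 (GFP+) and 8.24, 8.61 and 9.04 (GFP-). The highest DZ array, GFP- replicate 3, lay just below the lowest LZ array, 8.23 against 8.24. The difference was -1.29 (SE 0.25, adjusted p = 0.00899), 2.45-fold. None of the 4 other tested genes of lymph node egress, S1pr1 and Klf2 among them, was called between zones (median -0.03).

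Batf, an AP-1 factor without a transactivation domain that B cells need for class switching, read 7.04, 6.76 and 6.57 (GFP+) and 6.95, 6.0 and 6.82 (GFP-) in DZ cells. It read 7.49, 7.38 and 7.97 (GFP+) and 7.72, 7.95 and 7.35 (GFP-) in LZ cells. The zones did not overlap, and the difference was -0.95 (SE 0.18, adjusted p = 0.0079). Junb, an AP-1 component with weaker activating function than JUN, read 7.26, 7.62 and 7.96 (GFP+) and 7.35, 7.48 and 7.59 (GFP-) in DZ cells. In LZ cells Junb read 8.01, 7.94 and 8.26 (GFP+) and 8.10, 8.38 and 8.10 (GFP-). The zones met at 1 pair of arrays, and the difference of -0.59 (SE 0.13, adjusted p = 0.0163) was the smallest of the calls.

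Fos read 6.79, 6.75 and 6.86 (GFP+) and 6.42, 6.89 and 6.99 (GFP-) in DZ cells. Fos in LZ cells read 5.95, 7.47 and 7.08 (GFP+) and 7.01, 6.90 and 6.68 (GFP-). The GFP+ LZ arrays held both the lowest and the highest Fos signal of the experiment. The difference was -0.06 (95% confidence interval -0.53 to 0.40, adjusted p = 0.905), so a change beyond 0.53 in either direction lies outside the interval. Jun read 6.27, 6.67 and 6.64 (GFP+) and 6.62, 6.53 and 6.92 (GFP-) in DZ cells, against 6.43, 6.86 and 6.91 (GFP+) and 6.42, 7.37 and 6.54 (GFP-) in LZ cells. Its difference was -0.15 (95% confidence interval -0.51 to 0.22, adjusted p = 0.675).

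The zone differences were then taken within each GFP class, which asks whether cells with the rearrangement behaved as the other IgG1 GC cells did. In GFP+ cells 3 of 9 members were called lower in DZ, against 0.742% of all genes: Egr2 (-1.80, adjusted p = 0.00651), Nr4a1 (-1.55, adjusted p = 0.00341) and Egr3 (-0.79, adjusted p = 0.0292). In GFP- cells 3 of 9 were called, against 0.995% of all genes: Egr2 (-1.32, adjusted p = 0.0182), Nr4a1 (-1.03, adjusted p = 0.0155) and Batf (-1.08, adjusted p = 0.0468). The test of the difference between these zone effects called 0 of 9 members and 0% of all genes (0 members and 543 genes had p under 0.05 in limma before adjustment). The largest such difference was that of Nr4a1, -0.53 (95% confidence interval -1.11 to 0.06, adjusted p = 0.986). GFP+ against GFP- cells over both zones likewise gave 0 of 9 and 0% (1 member, Egr3, and 519 genes before adjustment).

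**Figure D2:**
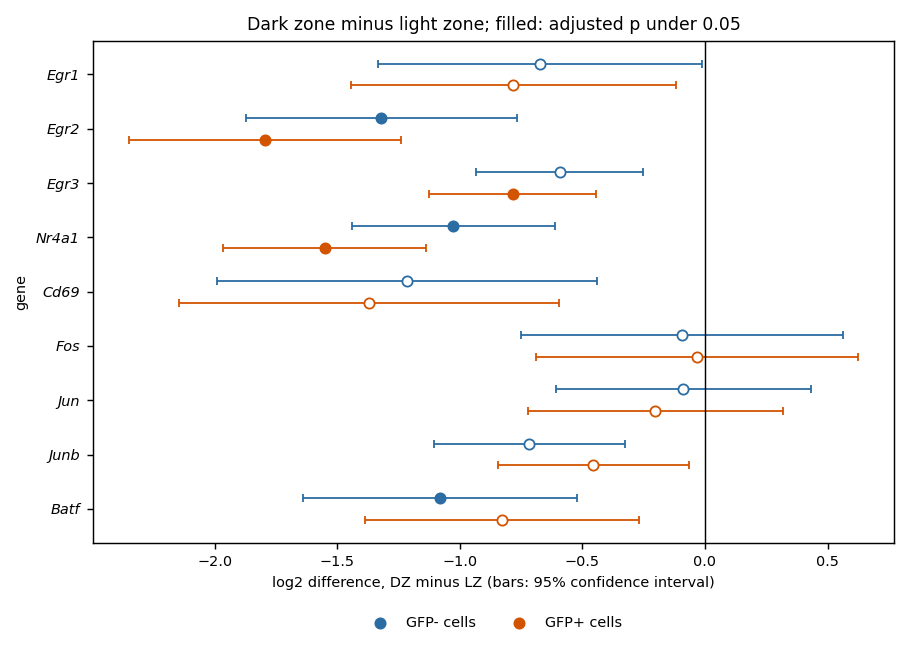
Difference of DZ minus LZ in log2 units for the 9 tested members within GFP- and GFP+ cells, with 95% confidence intervals and filled points where the adjusted p was under 0.05. Egr2 and Nr4a1 are filled in both classes, and the intervals of each gene overlap between the classes.

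Leaving out 1 array kept Egr2 and Nr4a1 called in GFP+ cells, and Egr3 there was lost without any of 5 arrays (adjusted p 0.0508 to 0.138) and with only these groups fitted (0.129). Batf in GFP- cells was lost without any of the 6 arrays (adjusted p 0.0589 to 0.145), with only these groups fitted (0.102) and without the filter (0.0607). A limma fit with a term for the replicate number also lost it (0.057). That fit called Cd69 in GFP+ (0.0145) and GFP- cells (0.0181) and Junb in GFP- cells (0.0421). In GFP- cells the count of 3 fell to 0 without DZ replicate 1 and to 1 without LZ replicate 1, DZ replicate 2, LZ replicate 2 or LZ replicate 3. Over both classes all 6 zone calls stayed below the threshold in each of the 17 alternatives run.

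Other early response genes moved in the same direction between zones. Of 23 tested genes of a wider immediate early list 9 were lower in DZ and 0 were higher, with a median of -0.40. They included the stress kinase gene Plk3 (-0.95, adjusted p = 0.000259), the maturation marker gene Cd83 (-1.07, adjusted p = 0.000444), the G protein regulator gene Rgs1 (-0.98, adjusted p = 0.00722) and the repressor gene Bhlhe40 (-0.86, adjusted p = 0.00728). Plk3 read 6.03 to 6.40 on the DZ and 6.94 to 7.34 on the LZ arrays, without overlap. Nab1, a corepressor that binds EGR proteins, was lower in DZ (-0.53, adjusted p = 0.0167), the single call among 3 tested relatives and partners of the EGR and NR4A families. Of 6 further AP-1 and ATF genes 0 were called, and of 12 genes for factors upstream of the members, such as Srf, Creb1 and the NFAT genes, 0 were called. Of 9 ERK feedback genes 2 were lower: Rasa2 (-0.54, adjusted p = 0.00426) and the phosphatase gene Dusp10 (-0.66, adjusted p = 0.00754). Of 8 heat shock genes, which respond to cell handling, 1, Hsp90aa1, was higher in DZ (0.39) and 0 were lower. Among all genes tested 3% were called lower in DZ. The part of cell handling in the zone differences was not tested.

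Markers of other cells were also set against the zones. Of 5 naive B cell markers 3 were lower in DZ: Cr2 (-0.99, adjusted p = 0.000142), Fcer2a (-0.96, adjusted p = 0.000256) and Bcl2 (-0.63, adjusted p = 0.00901). The mean of the 5 ran from 7.92 to 8.12 on the DZ and from 8.32 to 8.64 on the LZ arrays. S1pr1, also among the 5, went the other way with overlap and was not called. It read 7.2 to 7.8 on the DZ and 6.8 to 7.6 on the LZ arrays. Of 8 tested T cell markers 0 were called. The mean of 9 T cell markers ran from 5.10 to 5.97 on the DZ and from 5.69 to 6.15 on the LZ arrays, Cd4 stayed below the array median on all 12, and Cd3e read 6.36 to 7.71 in DZ and 6.77 to 7.79 in LZ. Of 4 tested PC markers 2 were higher and 1 was lower in DZ. The part of these cell types in the members' zone differences was not tested.

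The genes closest to the members over the 4 zone groups were found by the root-mean-square distance between centred profiles of group means. Lifr, a cytokine receptor gene, was closest to Egr2 (distance 0.06), Cfp, the complement properdin gene, to Nr4a1 (0.09), Nxpe3 to Egr3 (0.02), Cdc14a to Junb (0.03), Tlr1 to Batf (0.04) and Hapln1, a hyaluronan link protein gene, to Cd69 (0.02). Gpr183, a receptor that guides B cell position, was next but one for Batf (0.07), and the immune GTPase gene Gimap4 was next but one for both Egr2 (0.12) and Nr4a1 (0.10).

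In the first experiment the members had no common direction between the GC and naive cells.

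**Figure D3:**
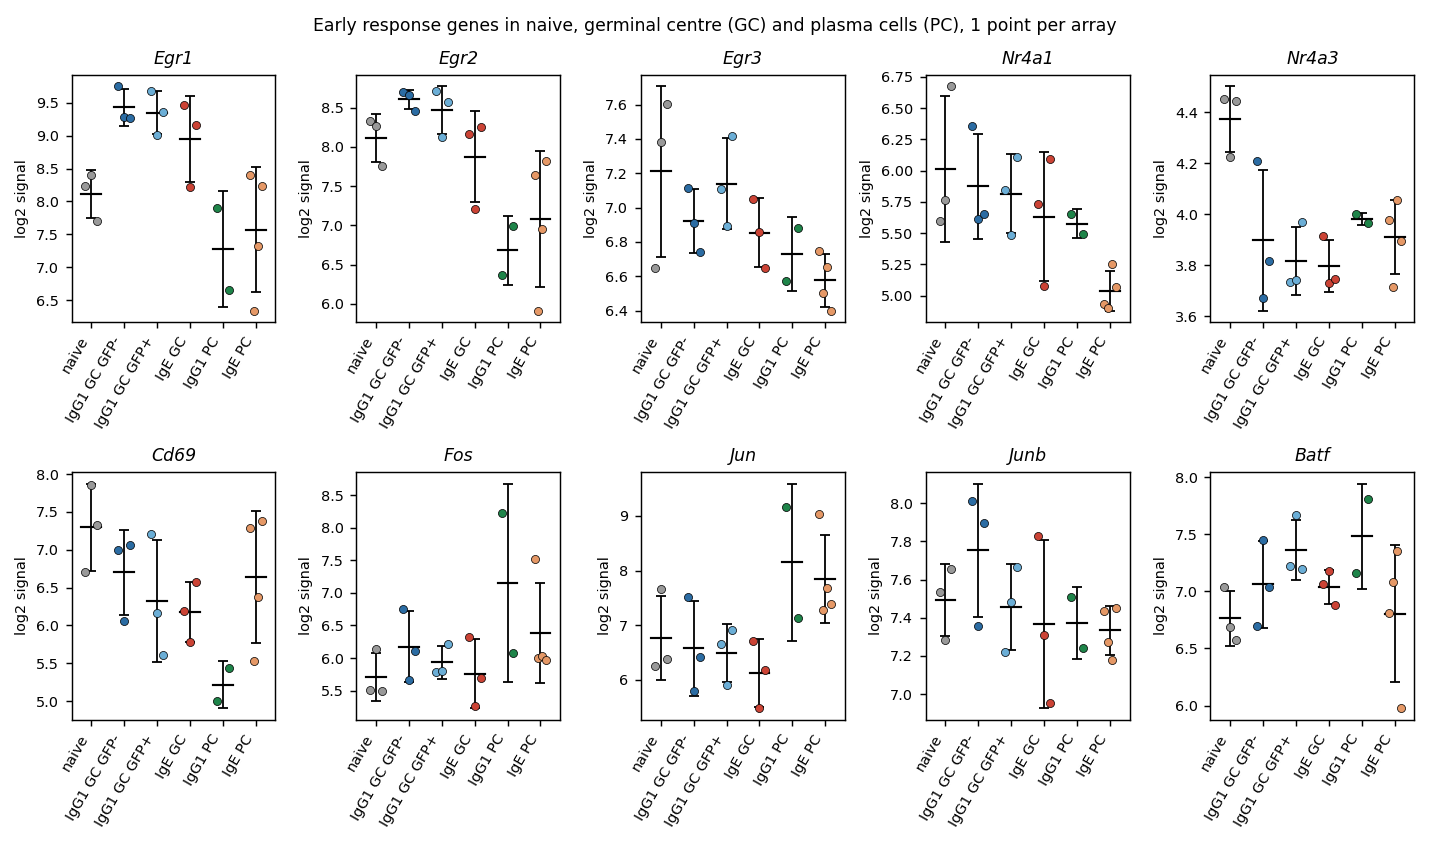
Log2 signal of each early response gene on the 18 arrays of the first experiment, with points for arrays, bars for group means and whiskers for the SD (n = 2 to 4). Egr1 is highest in the 3 GC groups and lowest in PC, Jun is highest in PC, and the first array of both PC groups carries the highest Fos and Jun signals; each panel has its own axis.

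Naive B cells read 8.23, 8.41 and 7.70 for Egr1, GFP- IgG1 GC cells 9.76, 9.28 and 9.26, and GFP+ IgG1 GC cells 9.67, 9.01 and 9.36. IgE GC cells read 9.46, 8.22 and 9.17, so that 1 IgE array fell within the naive range and the IgG1 GC arrays did not. GFP- IgG1 GC cells had more Egr1 than naive cells (1.32, SE 0.46, adjusted p = 0.0414), 2.50-fold. This was the single member called of 9, where 29.8% of all genes were called. The call was lost without any of 5 arrays, the 3 GFP- arrays and naive arrays 1 and 3 (adjusted p 0.0699 to 0.128), and after a further quantile normalization (0.0931). The other comparisons gave 1.24 for GFP+ IgG1 GC (adjusted p = 0.0641) and 0.84 for IgE GC cells (adjusted p = 0.19).

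In both of these latter comparisons 0 of 9 members were called, where 23.3% of all genes were called for GFP+ IgG1 GC cells and 26.7% for IgE GC cells. By an unadjusted p under 0.05 limma had 1 member in each, Egr1 and Cd69 in that order, and 4287 and 4768 of all genes. All 3 GC comparisons share the naive arrays, and their estimates are not independent. Without naive array 1 Egr3 was called lower in IgE GC cells (-0.64, adjusted p = 0.0268, against -0.36 and 0.246 with it) and in GFP- IgG1 GC cells (-0.57, adjusted p = 0.0468, against -0.29 and 0.331). Without GFP+ IgG1 GC array 3 as well, these adjusted p values were 0.018 and 0.0325, and that of Egr1 in GFP- IgG1 GC cells was 0.0831 (1.38). Cd69 was lower by estimate in each GC group: naive cells read 6.70, 7.86 and 7.33, IgE GC cells 6.20, 5.78 and 6.57, without overlap, and the difference of -1.11 (SE 0.48) had an adjusted p of 0.0943. Of 7 tested T cell markers 1 was lower in IgE GC cells than in naive cells. In GFP+ and in GFP- IgG1 GC cells 3 of the 7 were lower, and 0 were higher in any GC group. The part of T cells in these differences was not tested.

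Other lists were read against the 26.7% of all genes called between IgE GC and naive cells. In IgE GC cells 3 of 24 wider immediate early genes were higher and 5 lower, among them Rgs2 (3.13, adjusted p = 8.92e-05) and Gadd45b (2.59, adjusted p = 0.000663) up and the NF-κB inhibitor genes Nfkbid (-1.82, adjusted p = 2.94e-06) and Nfkbiz (-1.17, adjusted p = 0.00213) down. Of 9 ERK feedback genes 3 were higher, Dusp10 (1.62), Spred1 (1.94) and Spred2 (1.34), and 0 were lower. Of 4 egress genes 3 were lower, S1pr1 (-2.85), its activator Klf2 (-1.66) and the chemokine receptor gene Ccr7 (-1.89). Of 12 upstream factors 2 were higher and 1 lower, of 7 further AP-1 and ATF genes 1 was lower, and of 3 EGR and NR4A relatives 0 were called.

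In the fit of all groups, Egr1 was called lower in PC than in GC cells of both isotypes, and Egr2 in IgG1 PC only. IgG1 PC read 7.90 and 6.66 for Egr1 and 6.37 and 6.99 for Egr2, and GFP+ IgG1 GC cells read 8.71, 8.13 and 8.57 for Egr2. Both PC arrays were below all 3 GC arrays for both genes. Egr1 differed by -2.07 (SE 0.52, adjusted p = 0.00805), 4.19-fold, and Egr2 differed by -1.79 (SE 0.44, adjusted p = 0.0072), 3.46-fold. These were 2 of 9 members called, where 21.4% of all genes were called. With 2 arrays in the group each rests on both: Egr2 was lost without IgG1 PC array 1 (-1.48, adjusted p = 0.0868) and Egr1 without array 2 (-1.45, adjusted p = 0.138). The array that remains is then assumed to vary as the other groups do. Of 7 tested T cell markers 2 were higher in PC than in GC cells of either isotype and 0 were lower. They were Cd28 (9.08 to 10.10 on the PC and 4.45 to 5.31 on the GC arrays) and Thy1 (8.82 to 10.30 and 5.87 to 8.19). The median difference of the 7 was 0.70 in IgG1 and -0.24 in IgE cells. The T cell receptor complex gene Cd3e overlapped between PC and GC arrays in both isotypes, and Cd4 was below the array median on all PC arrays. Cd3d read 4.50 and 6.06 in IgG1 PC and 4.14 to 4.33 in GFP+ IgG1 GC cells. Cd5 read 5.65 and 5.64 against 5.41 to 5.54. In IgE cells Cd3d overlapped, and Cd5 was lower in PC (5.14 to 5.22 against 5.30 to 5.99). The part of T cells in the members' differences was not tested.

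IgE PC read 8.40, 6.34, 7.32 and 8.23 for Egr1, spread over more than 2 log2 units. Against IgE GC cells the difference was -1.38 (SE 0.43, adjusted p = 0.0279), and 2 of the 4 PC arrays lay above the lowest GC array. Egr2 read 7.64, 5.91, 6.95 and 7.82 in IgE PC and 8.16, 7.20 and 8.26 in IgE GC cells, and its difference of -0.80 (SE 0.37) was not called (adjusted p = 0.144). Jun was the other of the 2 of 9 called members, where 23.6% of all genes were called. The Egr1 call was lost without IgE GC array 1 or 3 or IgE PC array 2 or 3 (adjusted p 0.0638 to 0.137), and with only these groups fitted (0.0724).

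Jun ran the other way. IgE PC read 9.03, 7.29, 7.68 and 7.38 and IgE GC cells 6.71, 5.48 and 6.17, without overlap, a difference of 1.72 (SE 0.55, adjusted p = 0.0291) or 3.30-fold. IgG1 PC read 9.17 and 7.13 and GFP+ IgG1 GC cells 6.66, 5.91 and 6.92, a difference of 1.66 (SE 0.65) that was not called (adjusted p = 0.0845). The IgE call was lost without IgE PC array 1 (1.33, adjusted p = 0.0942) or without IgE GC array 2 (1.40, adjusted p = 0.146) or 3 (1.75, adjusted p = 0.0708). Fos read 7.53, 5.99, 6.03 and 5.97 in IgE PC and 6.33, 5.27 and 5.69 in IgE GC cells, with a difference of 0.62 (SE 0.46, adjusted p = 0.408). In IgG1 PC Fos read 8.23 and 6.08, against 5.79, 5.80 and 6.22 in GFP+ IgG1 GC cells (1.22, SE 0.55, adjusted p = 0.135). Junb and Batf differed from GC cells by -0.23 to 0.12 over both isotypes, with adjusted p values from 0.64 to 0.951.

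**Figure D4:**
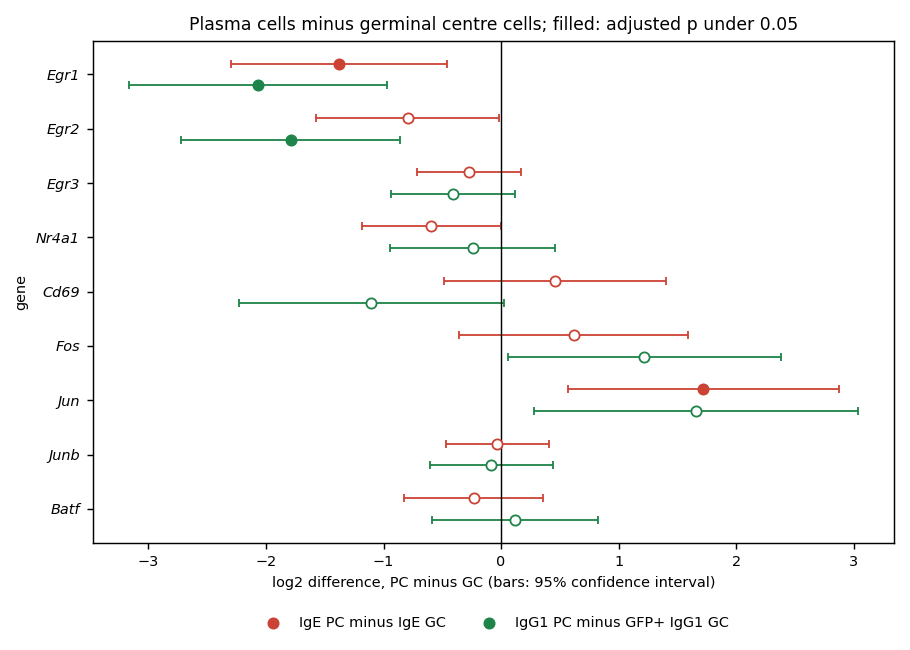
Difference of PC minus GC cells in log2 units for the 9 tested members in the IgE and IgG1 isotypes, with 95% confidence intervals and filled points where the adjusted p was under 0.05. Egr1 lies below 0 and is filled in both isotypes, and Jun lies above 0 and is filled in IgE only, with like estimates of 1.72 and 1.66.

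The change from GC to PC was then compared between isotypes, which asks whether IgE cells became PC in the same way. The interaction called 0 of 9 members and 0.0909% of all genes (1 member and 822 genes before adjustment, limma). The member furthest from 0 was Cd69, 1.56 (95% confidence interval 0.09 to 3.04, adjusted p = 0.697, limma). Cd69 read 7.28, 5.53, 6.38 and 7.38 in IgE PC and 5.00 and 5.44 in IgG1 PC, without overlap. The direct difference between these PC groups was 1.42 (SE 0.51, adjusted p = 0.228), so it was not called. None of the 9 members was called between IgE and IgG1 PC, where 0.959% of all genes were (2 members, Cd69 and Batf, and 1575 genes before adjustment, limma).

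Between IgE and GFP+ IgG1 GC cells, the first contrast that the study set out to make, 0 of 9 members and 0% of all genes were called (0 members and 264 genes had p under 0.05 before adjustment, limma). All 9 estimates lay below 0, from -0.60 for Egr2 (95% confidence interval -1.43 to 0.24) to -0.09 for Junb, with a median of -0.29 against 0.03 for all genes. The 9 estimates share the same 6 arrays. IgE GC array 2 was the lowest of its group for Egr1, Egr2, Nr4a1, Cd69, Fos and Jun. GFP+ and GFP- IgG1 GC cells also gave 0 of 9 and 0% (0 members and 265 genes before adjustment), with estimates between -0.38 for Cd69 and 0.30 for Batf.

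Set against naive cells, IgE PC had 3 of 9 members called, all lower, where 37% of all genes were called: Nr4a1 (-0.97, adjusted p = 0.0111), Egr3 (-0.63, adjusted p = 0.0246) and Egr2 (-1.04, adjusted p = 0.0364). Nr4a1 read 4.93, 4.90, 5.25 and 5.07 in IgE PC, all below the array medians, and 5.59, 5.76 and 6.68 in naive cells. Without naive array 3 Nr4a1 was lost (-0.64, adjusted p = 0.0816). Egr2 was lost without naive array 1 or 2 or IgE PC array 2 or 3 (adjusted p 0.0736 to 0.109), and Egr3 without naive array 2 or 3 or IgE PC array 2 or 4 (adjusted p 0.0526 to 0.14). With only these groups fitted, both were lost (0.102 for Egr2 and 0.0886 for Egr3), and without both arrays that stood apart Egr2 was lost (0.121). Of 7 tested T cell markers 2 were higher and 4 lower in IgE PC than in naive cells. In IgG1 PC 2 were higher and 1 was lower. The part of T cells in the differences from naive cells was not tested.

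IgG1 PC had 2 of 9 members lower than naive cells, where 29.3% of all genes were called: Cd69 (-2.08, SE 0.53, adjusted p = 0.00685), 4.22-fold, and Egr2 (-1.43, adjusted p = 0.0206). The Cd69 signals of IgG1 PC were 5.00, below its array median of 5.35, and 5.44, just above it, where folds are compressed. Both were lost without IgG1 PC array 1 (adjusted p 0.0622 for Cd69 and 0.169 for Egr2), and Egr2 also without naive array 1 (0.0537) or 2 (0.0528). Without naive array 1 Egr3 was called lower (-0.76, adjusted p = 0.013, against -0.48 and 0.172 with it), and without GFP+ IgG1 GC array 3 as well its adjusted p was 0.0086 and that of Egr2 was 0.0628. Without IgG1 PC array 2 instead, Fos (2.52, adjusted p = 0.00368) and Jun (2.40, adjusted p = 0.0275) were called higher.

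The other lists were read for PC against GC cells too, where 23.6% of all genes were called in IgE and 21.4% in IgG1 cells. In IgE PC 4 of 24 wider immediate early genes were higher and 4 lower than in IgE GC cells, among them Irf4, which drives PC formation (3.67, adjusted p = 3.98e-08), and the kinase gene Sik1 (1.72, adjusted p = 5.54e-05) up and Cd83 (-3.32, adjusted p = 1.05e-08) and Rgs2 (-3.95, adjusted p = 2.87e-06) down. In IgG1 PC 3 were higher and 6 lower than in GFP+ IgG1 GC cells. Of 12 upstream factors 2 were higher and 5 lower in IgE PC, among them the calcium-dependent factor gene Nfatc1 (-1.67, adjusted p = 2.56e-05), Creb1 (-1.19, adjusted p = 2.58e-05) and its relative Crem (1.41, adjusted p = 0.000741), and 1 was higher and 8 lower in IgG1 PC. Of 9 ERK feedback genes 1 was higher and 3 lower in IgE PC, and 1 was higher and 4 lower in IgG1 PC. Dusp10 differed by -2.82 (adjusted p = 6.24e-07) in IgE PC and by -3.56 (adjusted p = 4.99e-07) in IgG1 PC. Nab2, an EGR corepressor, was lower in IgG1 PC than in GFP+ IgG1 GC cells (-0.80, adjusted p = 0.0123), 1 of 3 EGR and NR4A relatives, and 0 of these 3 were called in IgE PC. Of 7 further AP-1 and ATF genes 0 were called in either isotype.

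The order of the group means over the first experiment differed by member. Egr1 ran from GFP- IgG1 GC cells (9.43) through GFP+ IgG1 GC (9.35), IgE GC (8.95), naive (8.11) and IgE PC (7.57) to IgG1 PC (7.28), and the arrays of neighbours in that order overlapped throughout. Jun began with IgG1 PC (8.15) and IgE PC (7.84) and ended with IgE GC cells (6.12). Among tested members, neighbours did not overlap in 2 places. IgE GC cells (6.18) lay above IgG1 PC (5.22) for Cd69, and IgG1 PC (5.57) above IgE PC (5.04) for Nr4a1. How often neighbours do not overlap over all genes is not given here. Egr3 spanned 6.58 to 7.21, Junb 7.33 to 7.75 and Batf 6.80 to 7.48 as group means, and for these genes every group overlapped the next. Nr4a3 read 4.22 to 4.45 in naive cells and at most 4.21 elsewhere in the first experiment. When fitted without the filter, it was lower in IgE GC than in naive cells (-0.58, adjusted p = 0.0118), a difference between signals that were all below the array medians.

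Over the 6 groups of the first experiment, the genes nearest to Egr1 were Epb41l2 (distance 0.09), Pdcd1lg2, the gene of the checkpoint ligand PD-L2 (0.11), and N4bp2 (0.13). Slc14a1 was nearest to Egr2 (0.14), Eloa, an elongation factor gene, to Jun (0.13) and Samsn1, an adaptor gene, to Cd69 (0.14).

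The members also varied within groups. Fos, Jun and Egr1 were high on array 1 of both PC groups. IgE PC array 1 exceeded the mean of the other 3 arrays by 1.53 for Fos, 1.58 for Jun and 1.11 for Egr1, and IgG1 PC array 1 exceeded array 2 by 2.15, 2.04 and 1.24. Fosb, a further AP-1 gene chosen here after its values were seen, read 7.04 against 4.52, 5.09 and 5.51 in IgE PC and 7.71 against 5.53 in IgG1 PC. Fos and Jun lay at or above the 99.5th percentile of all genes for this excess in both groups, and Fosb at or above 99.7. Highest on array 1 of both groups were 3 of 9 members, 8 of 24 wider immediate early genes and 3 of 9 ERK feedback genes. The same held for 3 of 7 further AP-1 and ATF genes, 2 of 12 upstream factors and 0 of 8 heat shock genes. Among all genes the share was 14.7%. The median excess of the heat shock genes was -0.33 in IgE and -0.68 in IgG1 PC, against 0.01 and 0.0 for all genes. The part of cell handling in the first arrays of both PC groups was not tested. Without both of these arrays the PC minus GC difference of Jun was 1.33 in IgE (adjusted p = 0.0484) and 0.64 in IgG1 cells (adjusted p = 0.569), and that of Egr1 was -1.66 in IgE (adjusted p = 0.00781) and -2.69 in IgG1 cells (adjusted p = 0.00455). Egr2 in IgG1 PC was then no longer called (-1.48, adjusted p = 0.0806).

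Egr1, Egr2 and Cd69 moved alike over the IgE PC arrays. On IgE PC arrays 1 and 4 Egr1, Egr2 and Cd69 were high (8.40, 7.64 and 7.28 on array 1, and 8.23, 7.82 and 7.38 on array 4) and on array 2 all were low (6.34, 5.91 and 5.53). Nr4a1 and Junb did not share this, with ranges of 4.90 to 5.25 and 7.18 to 7.45 over these arrays. In naive cells Egr2 was highest on array 1, where Cd69 was lowest. Over all 10 groups Egr1 and Jun shared their highest array in 8 and their lowest in 7. For Egr2 and Cd69 these counts were 7 and 6, and for Fos and Batf 0 and 3. Other pairs cut across these: Egr1 and Egr2 had 4 and 8, Egr1 and Junb 7 and 4, and Jun and Cd69 3 and 7. The counts for other pairs of genes on the arrays are not given here.

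**Figure D5:**
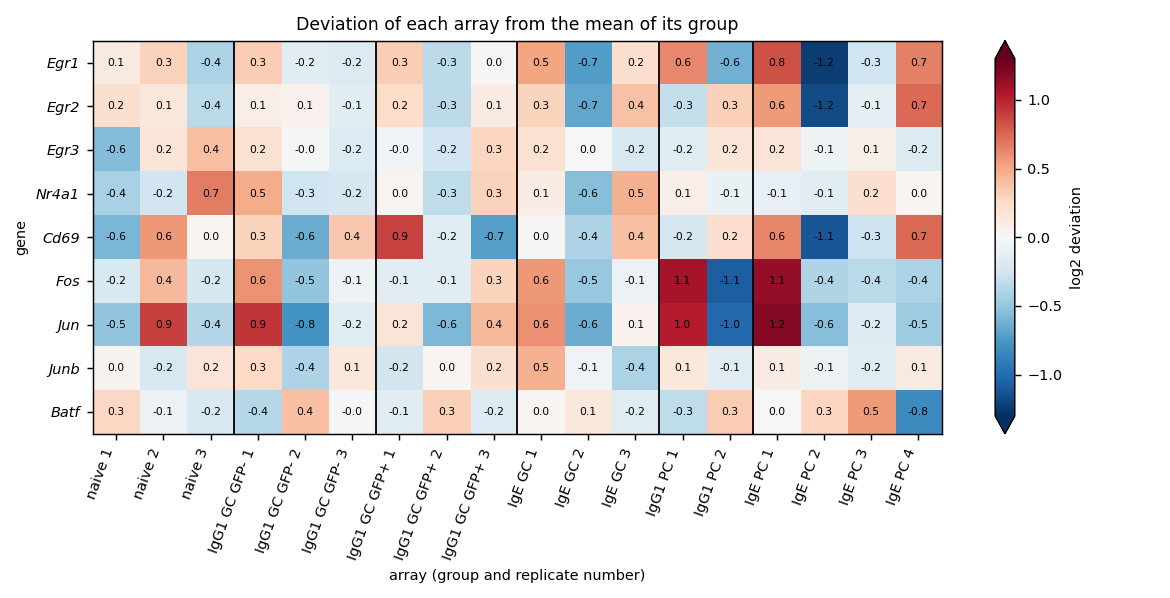
Deviation of each array of the first experiment from the mean of its group, in log2 units, for the 9 tested members (red above, blue below the group mean). Fos and Jun are about 1 above the mean on the first array of both PC groups, and Egr1, Egr2 and Cd69 are low together on IgE PC array 2.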

How the data were processed

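The deposited log2 values of 34760 probe sets on 30 Affymetrix Mouse Gene ST arrays were made by robust multi-array averaging (RMA), and per the submitters' processing notes R 2.15.2 was used. RMA forces the arrays to 1 distribution, which hides changes in total RNA per cell. RNA was amplified before labelling, per the labels' protocols. Whether both experiments were normalized together, and any hybridisation batch, are not given in the sources used here. In the platform annotation 21640 probe sets had 1 symbol (21553 of them found in RefSeq), 1321 had several and 11799 had none. The probe set with the highest mean stood for a gene.

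Each experiment was fitted in limma 3.58.1 (R 4.3.3) with 1 mean per group and all groups in the fit, after a test on simulated data. Figures were drawn with matplotlib 3.10.9. Precision is limited by groups of 2 to 4 arrays, and p-values measure the spread between sorted pools. The members and the gene lists were chosen with earlier results of these data known. All members are named; of other lists up to 4 called genes with the smallest adjusted p, and up to 3 genes nearest in profile to a called member. Alternatives were another normalization, filter, prior, set of groups and replicate block, and leaving out arrays. Replicate numbers were checked as pairs: deviations of same-numbered arrays correlated from -0.11 to 0.22 in the first experiment and from 0.00 to 0.20 in the second. Every pair passed 0.1 only for GFP+ against GFP- IgG1 GC cells (0.109 to 0.154), where the replicate block left 0 members called. Removing the first PC arrays was chosen after seeing the data. List genes that share a probe set with other symbols, or are not named on the platform, were not used here.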

Additional observations from a re-analysis of the deposited data

Results flagged for a closer look

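Fos in IgE PC replicate 1 read 7.53, while the other 3 arrays of the group read 5.97 to 6.03. The gap to the nearest array was 0.964 of the group's range. IgE PC was the only group with 4 arrays or more, so the 10 members were each examined there, and chance marks about 1 in 20 groups of this kind.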

How the results depend on the processing

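No called difference changed sign. Of the 144 member differences 52 crossed 0 in some alternative, and 0 of these were called. The 6 DZ against LZ calls held in all 17 alternatives, and Egr1 joined them with a trend and robust prior (adjusted p = 0.0479). With only the compared groups fitted, 1 member was called for GFP+ IgG1 GC against naive, 1 for IgE PC against naive and 1 for IgE PC against IgE GC cells. With a further quantile normalization 1 was called for IgE GC against naive (Cd69) and 0 for GFP- IgG1 GC against naive. Without the filter, where Nr4a3 enters, the GC groups against naive had 1 (IgE), 1 (GFP+ IgG1) and 2 (GFP- IgG1). Without the arrays that stood apart 1 was called for IgE GC against naive (Egr3). Egr3 then also passed for GFP- IgG1 GC (adjusted p = 0.0325) and IgG1 PC against naive (0.0086), while Egr1 in GFP- IgG1 GC (0.0831), Egr2 in IgE PC (0.121) and Egr2 in IgG1 PC against naive (0.0628) were lost. Without the first array of both PC groups 0 were called for IgG1 PC against naive and 1 for IgG1 PC against GFP+ IgG1 GC cells.

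Leaving out 1 array at a time gave 0 to 1 members for IgE GC and 0 to 1 for GFP- IgG1 GC against naive, 1 to 3 for IgE PC and 0 to 4 for IgG1 PC against naive, 0 to 2 for IgE PC against IgE GC, 1 to 3 for IgG1 PC against GFP+ IgG1 GC and 0 to 3 for DZ against LZ within GFP- cells. Signals near the array median, such as those of Nr4a1, understate differences.

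With the replicate block 1 member was called for GFP+ IgG1 GC against naive (Egr1, 1.24, adjusted p = 0.0135), and Egr1 was called between zones (adjusted p = 0.00775). Fos in IgG1 PC against naive (0.04), Egr2 in IgE PC against IgE GC (0.0491), Cd69 between zones in GFP+ (0.0145) and GFP- cells (0.0181) and Junb in GFP- cells (0.0421) also passed. Egr3 in IgE PC against naive (0.0773) and Batf between zones in GFP- cells (0.057) were lost. Deviations of same-numbered arrays had a median correlation of 0.0595 in the first and 0.0855 in the second experiment. For arrays with different numbers the medians were -0.029 and -0.045. Whether the numbers mark shared sorts is not known.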
